A study of Mus musculus with 6 samples.

Results

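Cyclins and the cell-cycle cyclin-dependent kinases (CDKs) were examined in C2C12 cells, an established mouse myoblast line, before and after differentiation. The 10 genes are the D-type cyclins *Ccnd1*, *Ccnd2* and *Ccnd3*, the E-type cyclins *Ccne1* and *Ccne2*, the A-type cyclin *Ccna2*, the B-type cyclins *Ccnb1* and *Ccnb2*, and the kinases *Cdk1* and *Cdk2*. They were taken by symbol from the 54525 gene rows of the count tables, and all 10 were found and passed the filter on low counts. RNA-seq was available for 3 cultures labelled D0 (myoblasts in growth medium with fetal bovine serum) and 3 labelled D5 (after 5 days of differentiation in medium with horse serum). The labels call all of them muscle myoblasts, and the D5 cultures are called myotubes here, as in the study. All 6 libraries carry the genotype WT and no treatment, and nothing in the labels says how the cultures of a group were separated, so the p-values measure the spread between these libraries. Because the medium changed together with the day, the effects of serum and of time cannot be told apart.

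Cyclins are regulatory proteins that switch on their partner kinases, and their own abundance rises and falls as a cell divides. D-type cyclins act early in G1 with *Cdk4* and *Cdk6* and respond to growth factors, E-type cyclins act with *Cdk2* at the entry into S phase, and cyclin A2 and the B-type cyclins act with *Cdk2* and *Cdk1* through S phase, G2 and mitosis. Skeletal muscle cells leave the cell cycle for good when they differentiate, and cyclin D3 is known as the D-type cyclin that accumulates in differentiated muscle cells.

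Counts on genes summed to between 36555048 and 40895840 in a D0 library, and to between 25449759 and 25811300 in a D5 library. The identity of the cells was described with fixed marker lists, which were chosen with earlier results of these data known. All 7 myotube markers were higher at D5, with a summed level of 56.8 to 70.7 CPM (counts per 1000000 counts, after TMM scaling of the libraries) at D0 and 12005 to 12840 CPM at D5. Of the 4 myoblast markers, *Myod1*, *Myf5* and *Pax7* were lower at D5 and *Des* was higher, a call that was lost without scaling and when libraries were scaled to the ERCC spike-ins. Without scaling, the lower total counts of the D5 libraries enter the fold changes and move them down for every gene. *Myf5* was still at 24.3 to 25.3 CPM at D5, and its part in the D5 levels given here was not tested. The 5 adipocyte markers had at most 3 counts in every library. The summed level was at most 0.405 CPM for the bone and cartilage markers, 2.97 CPM for the endothelial markers and 3.41 CPM for the macrophage markers. Most of the last 2 sums came from *Kdr*, at 2.28 to 2.80 CPM at D0, and *Cd68*, at 3.05 to 3.31 CPM at D0. With TMM scaling both were called lower at D5, a call that *Cd68* lost with scaling to the spike-ins. In these bulk samples, fewer dividing cells and less RNA per cell cannot be told apart.

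Of the 10 genes, 9 were lower in myotubes and 1, *Ccnd3*, was higher, by edgeR's quasi-likelihood test at a threshold of 0.05 on the adjusted p. The same threshold called 82.9% of the 16290 genes tested, 40.8% lower and 42.2% higher, so a call in itself does not set these genes apart. The falls spanned a wide range. *Ccna2*, *Ccnb1*, *Ccnb2* and *Cdk1* kept from 2.79% to 4.73% of their D0 level, *Ccne1* and *Ccne2* kept 6.74% and 8.59%, *Ccnd2* kept 25.7%, and *Ccnd1* and *Cdk2* kept 57.7% and 67.6%. The median log2 fold change of the 10 genes was -3.71, against 0.0022 for all genes tested. With TMM scaling, all 10 were without overlap between the groups, 9 with all 3 D5 libraries below and 1 with all 3 above the D0 libraries. Among all genes tested, 41.1% lay lower and 42.2% higher in this way.

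**Figure D1:**
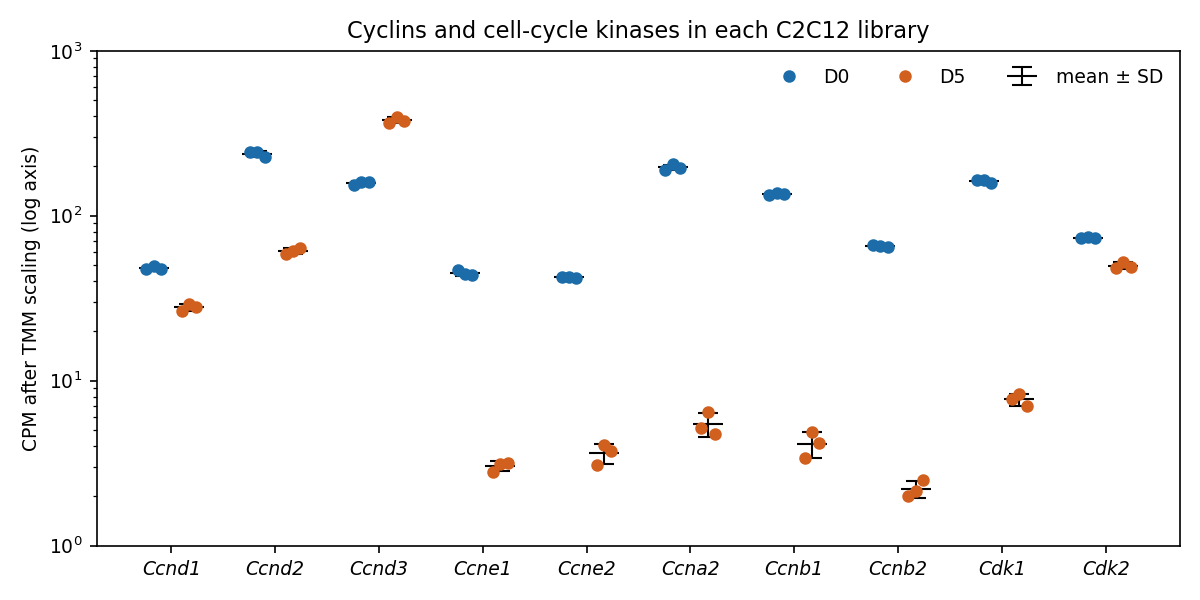
Level of each gene in each library, in CPM after TMM scaling on a log axis. Points are the 3 D0 (blue) and 3 D5 (orange) libraries, and black bars show the mean and SD. The D5 points of *Ccnd3* lie above its D0 points, at 366 to 398 CPM against 154 to 161 CPM, and those of the other 9 genes lie below.

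The D-type cyclins, which carry growth factor signals to the kinases of G1, did not move together. *Ccnd3* (ENSMUSG00000034165.16, chromosome 17 of GRCm38 from 47505051 to 47599691, plus strand) had 154, 159 and 161 CPM in the D0 libraries and 366, 398 and 376 CPM in the D5 libraries. With TMM scaling every myotube library lay above every myoblast library. The mean rose 2.40-fold, from 158 ± 3.92 CPM to 379.9 ± 16 CPM (SD, n = 3 each). The log2 fold change was 1.27 (SE 0.035) with an adjusted p of 2.1e-24 in edgeR. Scaled to the ERCC spike-ins it was 0.72 (SE 0.52), with an adjusted p of 0.284 in edgeR, and so not past the threshold.

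*Ccnd2* (ENSMUSG00000000184.12, chromosome 6 from 127125162 to 127152193, minus strand) was a larger part of the D-type pool in myoblasts than in myotubes. It stood at 242, 242 and 226 CPM at D0 and at 58.3, 60.9 and 63.4 CPM at D5, so the groups lay far apart. It fell to 25.7% of the D0 mean, with a log2 fold change of -1.96 (SE 0.039, adjusted p = 3.8e-28 in edgeR). *Ccnd1* (ENSMUSG00000070348.5, chromosome 7 from 144929931 to 144939925, minus strand) was the lowest D-type cyclin per length of transcript in both groups. Its levels were 47.5, 49.6 and 47.8 CPM at D0 and 26.5, 29.2 and 27.8 CPM at D5. The groups did not overlap, but the fall was smaller than that of *Ccnd2*, a log2 fold change of -0.79 (SE 0.047, adjusted p = 9.0e-16 in edgeR).

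A ratio of counts within a library does not depend on how libraries are scaled. The log2 ratio of *Ccnd3* to *Ccnd1* was 1.69, 1.68 and 1.75 in the D0 libraries and 3.79, 3.77 and 3.75 in the D5 libraries, a 4.17-fold larger ratio in myotubes. The log2 ratio of *Ccnd2* to *Ccnd1* went the other way, from 2.29 ± 0.053 to 1.13 ± 0.065 (SD, n = 3 each). In both ratios the D0 and D5 libraries were fully separated. For these and the 6 other ratios computed, the exact two-sided permutation test of 3 against 3 gave p = 0.1, the smallest it can give, and 0.1 after Benjamini-Hochberg adjustment over the 8 ratios.

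To compare levels between genes, counts were divided by the exonic length of each gene and expressed as TPM (transcripts per 1000000 transcripts). Of the summed TPM of the 3 D-type cyclins, *Ccnd2* took 47.1% ± 1.26, *Ccnd3* 33.7% ± 1.09 and *Ccnd1* 19.2% ± 0.238 in myoblasts (SD, n = 3). In myotubes *Ccnd3* took 77.8% ± 0.492, *Ccnd2* 11.6% ± 0.497 and *Ccnd1* 10.6% ± 0.0989 (SD, n = 3). The 3 libraries of a group differed by at most a few percentage points, whereas the share of *Ccnd3* ran from 32.8% to 34.9% at D0 and from 77.2% to 78.1% at D5. The shares depend on the length given to a gene. With the length of the longest transcript in place of all exons, *Ccnd3* took 44.9% at D0 and 85.2% at D5, and it then lay above *Ccnd2* (40.97%) in myoblasts too.

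**Figure D2:**
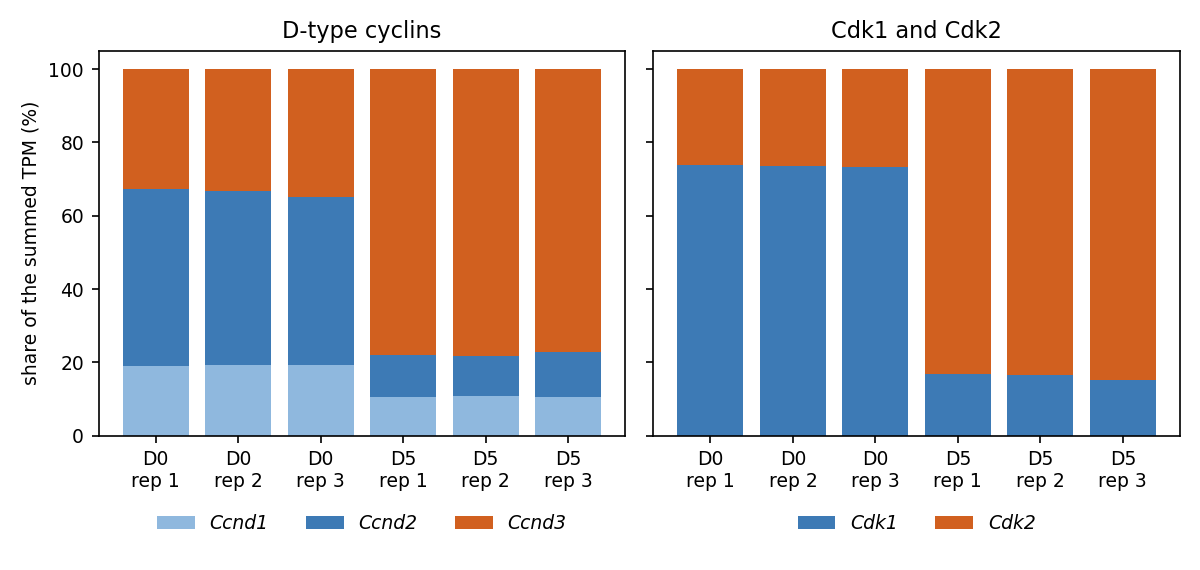
Shares of the summed TPM in each library, in percent, for the D-type cyclins (left) and for *Cdk1* and *Cdk2* (right), with TPM from the length of all exons. The orange part is *Ccnd3* on the left, 77.2% to 78.1% in the D5 libraries, and *Cdk2* on the right, 83.1% to 84.7% in the D5 libraries.

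The E-type cyclins, which activate *Cdk2* for the start of DNA replication, both fell. *Ccne1* (ENSMUSG00000002068.16, chromosome 7 from 38097984 to 38107534, minus strand) had 46.8, 44.1 and 43.8 CPM at D0 and 2.78, 3.12 and 3.17 CPM at D5. *Ccne2* (ENSMUSG00000028212.16, chromosome 4 from 11191351 to 11204779, plus strand) had 42.7, 42.4 and 41.7 CPM at D0 and 3.10, 4.05 and 3.74 CPM at D5. Each gene was lower in every myotube library, and the D5 values rest on 70 to 79 counts per library for *Ccne1* and 78 to 100 for *Ccne2*. The log2 fold changes were -3.89 (SE 0.074, adjusted p = 1.0e-28 in edgeR) for *Ccne1* and -3.54 (SE 0.073, adjusted p = 9.3e-28 in edgeR) for *Ccne2*. The log2 ratio of *Ccne1* to *Ccne2* was 0.086 ± 0.041 at D0 and -0.26 ± 0.11 at D5 (SD, n = 3 each). This ratio was lower in every D5 library than at D0, although by less than the genes themselves changed.

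*Ccna2*, the cyclin of S phase and G2, fell furthest of the 10 genes. It (ENSMUSG00000027715.9, chromosome 3 from 36564865 to 36572150, minus strand) had 189.7, 204 and 195 CPM in myoblasts and 5.13, 6.49 and 4.78 CPM in myotubes. The level was 35.9-fold lower at D5, a log2 fold change of -5.17 (SE 0.061, adjusted p = 6.8e-34 in edgeR). Among all genes tested, 0.743% had a lower log2 fold change than *Ccna2*.

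The B-type cyclins, which drive entry into mitosis with *Cdk1*, were also among the most reduced. *Ccnb1* (ENSMUSG00000041431.16, chromosome 13 from 100778650 to 100786570, minus strand) had 134, 136 and 135 CPM at D0 and 3.38, 4.87 and 4.22 CPM at D5. *Ccnb2* (ENSMUSG00000032218.7, chromosome 9 from 70407692 to 70421547, minus strand) had 66.8, 65.9 and 64.8 CPM at D0 and 1.99, 2.15 and 2.49 CPM at D5. Both were lower in all 3 myotube libraries, 32.6-fold for *Ccnb1* and 29.8-fold for *Ccnb2*. The log2 fold changes were -5.03 (SE 0.063, adjusted p = 2.8e-33 in edgeR) and -4.90 (SE 0.072, adjusted p = 1.8e-31 in edgeR). The D5 level of *Ccnb2* rests on 50, 53 and 62 counts, the fewest of the 10 genes.

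The kinases changed to very different extents. *Cdk1* (ENSMUSG00000019942.13, chromosome 10 from 69335146 to 69352938, minus strand), the kinase of mitosis, had 165, 164 and 159 CPM at D0 and 7.76, 8.31 and 7.03 CPM at D5. This was 21.1-fold lower in myotubes, a log2 fold change of -4.40 (SE 0.052, adjusted p = 6.2e-34 in edgeR). *Cdk2* (ENSMUSG00000025358.16, chromosome 10 from 128697939 to 128705031, minus strand), the partner of cyclins E and A2, had 73.7, 74.6 and 72.9 CPM at D0 and 48.0, 52.4 and 49.1 CPM at D5. *Cdk2* thus kept most of its level, although the groups did not overlap. Its log2 fold change was -0.56 (SE 0.041, adjusted p = 1.1e-13 in edgeR), the smallest change among the 10 genes with TMM. Scaled to the spike-ins it was -1.11 (SE 0.52) with an adjusted p of 0.0850 in edgeR, and without scaling it was -1.25. In both of these fits *Ccnd3* changed less, by 0.72 and 0.58.

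The log2 ratio of *Cdk1* to *Cdk2* was 1.14 ± 0.018 in myoblasts and -2.70 ± 0.094 in myotubes (SD, n = 3 each). By TPM, *Cdk1* took 73.6% ± 0.239 of the pair in myoblasts and 16.3% ± 0.880 in myotubes (SD, n = 3 each). The B-type cyclins were lower relative to *Cdk1* in every D5 library. The log2 ratio of *Ccnb1* to *Cdk1* was -0.27 ± 0.029 at D0 and -0.90 ± 0.26 at D5, and that of *Ccnb2* to *Cdk1* was -1.30 ± 0.013 at D0 and -1.80 ± 0.27 at D5 (SD, n = 3 each). The D5 libraries spread far more than the D0 libraries in these ratios, but none overlapped with D0. For *Ccnb2* to *Cdk1* the nearest D5 library, replicate 3, was at -1.50 from 62 and 175 counts, against -1.32 to -1.29 at D0. Leaving out any 1 D0 library raised the exact permutation p of that ratio from 0.1 to 0.2. The log2 ratio of *Ccna2* to *Cdk2* moved most of the 8, from 1.41 ± 0.046 to -3.20 ± 0.17 (SD, n = 3 each).

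**Figure D3:**
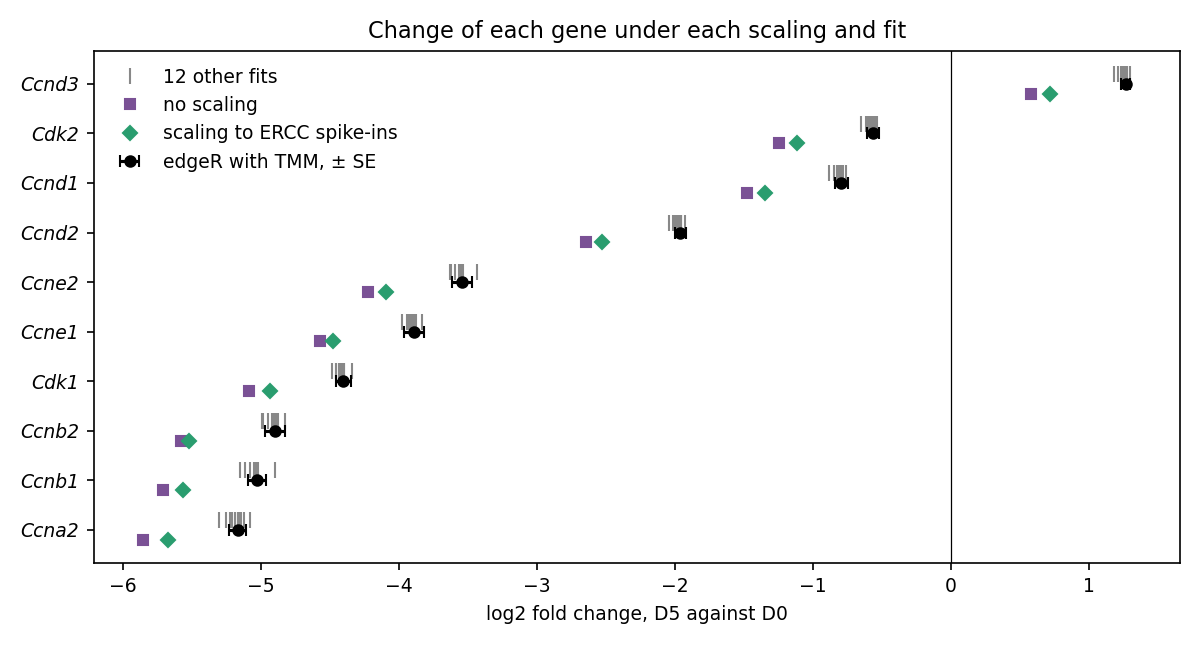
Log2 fold change of each gene, D5 against D0, from edgeR with TMM scaling (black, ± SE), from 12 other fits (grey ticks), from counts without scaling (purple) and scaled to the ERCC spike-ins (green, without its SE). *Ccnd3* lies right of 0 in every fit, from 0.58 to 1.29, and the other genes lie left of 0.

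In TPM from the length of all exons, the order of the genes differed between myoblasts and myotubes. At D0 it ran from *Ccna2* at 166 ± 7.92 TPM through *Ccnb2*, *Cdk1*, *Ccnb1*, *Ccnd2*, *Ccnd3*, *Ccne1*, *Ccne2* and *Cdk2* to *Ccnd1* at 35.5 ± 1.14 TPM (SD, n = 3 each). The ranges of *Ccnd3* and *Ccne1* overlapped there, as did those of *Ccne2* and *Cdk2*. At D5 *Ccnd3* led at 134 ± 3.48 TPM, followed by *Cdk2* at 24.9 ± 0.756 TPM, *Ccnd2* at 20.1 ± 0.621 TPM and *Ccnd1* at 18.4 ± 0.546 TPM (SD, n = 3 each). The other 6 genes lay between 3.05 and 4.84 TPM on average, and each overlapped in range with the next. With the length of the longest transcript the first 4 places at D5 were the same, but at D0 *Ccnb1* stood above *Ccnb2*, and *Ccnd3* followed *Ccnb2*.

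Windows from 250 bases before to 50 after the annotated start (RefSeq, GRCm38.p6) were held for *Ccnb1*, *Ccnb2*, *Ccne1*, *Cdk1* and *Cdk2* and, at 2 starts, for *Ccnd3*. None was held for *Ccna2*, *Ccnd1*, *Ccnd2* and *Ccne2*. Promoters of genes of G2 and mitosis are known for a cell cycle genes homology region (CHR), which the MuvB complexes bind, and for CCAAT boxes, which NF-Y binds. The windows were searched on both strands for the CHR (TTTGAA or TTTAAA), the CCAAT box (CCAAT) and an E2F site (TTTCCCGC, TTTCGCGC, TTTGCCGC or TTTGGCGC). The stretches from 180 bases before to 20 after the start are printed for the 3 windows that hold a CHR together with several CCAAT boxes, and for *Ccnd3* as the gene that rose. They are given 5′ to 3′ along the gene, and capitals mark the matches, a CCAAT box on the opposite strand reading ATTGG.
Cdk1 (chr10:69352893-69353092, minus strand): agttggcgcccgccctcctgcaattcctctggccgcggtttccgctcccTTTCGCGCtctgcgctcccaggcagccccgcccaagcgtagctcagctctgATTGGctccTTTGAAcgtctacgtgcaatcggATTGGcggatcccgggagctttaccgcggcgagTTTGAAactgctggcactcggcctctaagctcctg
Ccnb1 (chr13:100786467-100786666, minus strand): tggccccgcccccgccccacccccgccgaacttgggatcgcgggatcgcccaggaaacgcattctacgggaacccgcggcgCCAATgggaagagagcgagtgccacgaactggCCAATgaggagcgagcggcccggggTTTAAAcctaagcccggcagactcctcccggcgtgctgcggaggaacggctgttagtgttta
Ccnb2 (chr9:70421535-70421734, minus strand): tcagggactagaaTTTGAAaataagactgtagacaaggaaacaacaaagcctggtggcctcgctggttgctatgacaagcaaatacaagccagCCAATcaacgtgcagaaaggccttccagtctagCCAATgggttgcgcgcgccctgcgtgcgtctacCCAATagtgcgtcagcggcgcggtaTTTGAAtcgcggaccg
Ccnd3, second start (chr17:47593287-47593486, plus strand): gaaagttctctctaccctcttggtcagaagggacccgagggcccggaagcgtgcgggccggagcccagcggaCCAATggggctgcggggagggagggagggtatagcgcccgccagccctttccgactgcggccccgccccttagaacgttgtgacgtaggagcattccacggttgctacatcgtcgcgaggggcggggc

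The window of *Cdk1* held a CHR at -71 and at -15 from the start, CCAAT boxes at -208, -80 and -48 and an E2F site at -131. That of *Ccnb1* held a CHR at -42 and CCAAT boxes at -99 and -67, and that of *Ccnb2* held a CHR at -167 and at 5 and CCAAT boxes at -87, -54 and -21. These 3 genes were among the 4 that fell most, of which *Ccna2* had no window. A link between the matches and the falls was not tested. *Ccne1* held only a CHR match, at -15, and *Cdk2* held a CCAAT box at -45 and an E2F site at -140. The second start of *Ccnd3* held a CCAAT box at -108 and no other match, and its first start held none. Over all 32851 windows of the table, 27.6% held a CHR match, 37.4% a CCAAT box and 2.26% an E2F site, and 3.13% held a CHR with at least 2 CCAAT boxes, a combination chosen after the matches were seen. Positions are from the RefSeq start, and the GENCODE gene models of *Ccnb1*, *Cdk1* and *Ccne1* begin further upstream. The CHR matches at -42 of *Ccnb1* and at -15 of *Cdk1* and *Ccne1* lie inside those models. Only exact matches to the letters given were searched, so other forms of these sites would be missed. A match is only a run of letters, and binding was not measured.

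**Figure D4:**
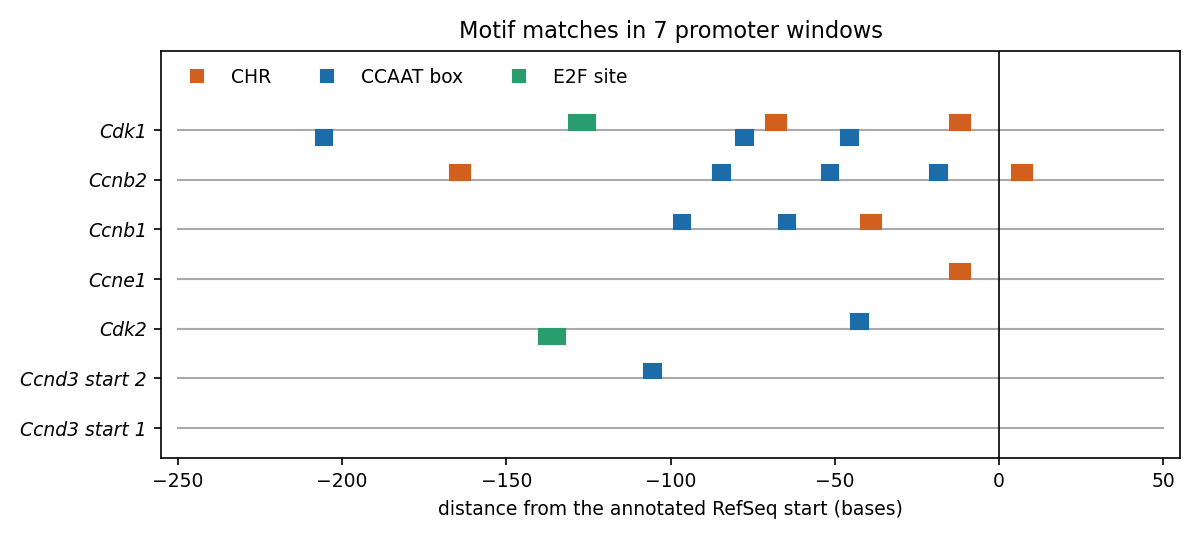
Matches to the CHR (orange), the CCAAT box (blue) and the E2F site (green) in the 7 promoter windows, against the distance in bases from the annotated RefSeq start. Boxes above a line are on the strand of the gene and boxes below it on the opposite strand. *Cdk1*, *Ccnb2* and *Ccnb1* each hold a CHR with 2 or 3 CCAAT boxes.

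The genes around the cyclins and kinases were described from fixed lists, by counts past the threshold in the same edgeR fit. That fit called 40.8% of all genes tested lower and 42.2% higher, so the number called in a list does not in itself set it apart. Of 10 catalytic partners, activators and docking subunits, 7 fell and 3 rose, with a median log2 fold change of -1.91. *Cdk4* and *Cdk6*, the kinases that D-type cyclins activate, fell to 25.04% and 17.96% of their D0 level, to 88.0 ± 1.93 CPM and 47.9 ± 0.694 CPM (SD, n = 3 each). *Cdc25c*, a phosphatase that switches *Cdk1* on, had the largest fall, from 22.1 ± 0.292 CPM to 0.442 ± 0.0360 CPM (SD, n = 3 each). Its D5 level rests on 12, 10 and 11 counts. *Cks2*, a small docking subunit of the kinases, followed with a log2 fold change of -3.40. The 3 that rose were *Ccnh*, *Cdk7* and *Mnat1*, the subunits of the CDK-activating kinase, at log2 fold changes of 0.45, 0.23 and 0.19. These rises turned into negative values without scaling, a fit that keeps the lower total counts at D5, and with scaling to the spike-ins.

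Of the 10 inhibitors, 8 were tested, of which 2 rose, 4 fell and 2 did not pass the threshold. *Cdkn1a*, which encodes the CDK inhibitor p21, rose 18.7-fold, from 107 ± 3.29 CPM to 2005 ± 54.3 CPM (SD, n = 3 each), and was higher in every D5 library. *Cdkn1c*, which encodes p57, rose 23.5-fold but only to 4.32 ± 0.168 CPM from 0.184 ± 0.0163 CPM (SD, n = 3 each), the latter from 7 or 8 counts per library. *Pkmyt1*, a kinase that holds *Cdk1* inactive, and *Cdkn3*, a phosphatase of CDKs, fell most of this list, with log2 fold changes of -3.53 and -2.65. *Cdkn1b* (p27) was at 87.1 ± 4.21 CPM and 84.6 ± 1.85 CPM and *Cdkn2d* (p19) at 21.0 ± 1.65 CPM and 19.96 ± 0.125 CPM (SD, n = 3 each), neither past the threshold. Without scaling and with total counts alone, these last genes were called lower. *Cdkn2a* and *Cdkn2b* had 0 counts in every library, which allows up to 3 counts.

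Of 10 genes that act in cyclin destruction, 7 fell and 3 rose, with a median log2 fold change of -1.98. *Cdc20*, an activator of the anaphase-promoting complex, fell 35.7-fold, and *Fbxo5*, an inhibitor of that complex, fell 29.6-fold. *Fbxo31* and *Fbxw7*, F-box proteins that mark cyclins D1 and E for degradation, rose 4.02-fold and 2.02-fold, and 1 of the 3 rises in this list passed the threshold with scaling to the spike-ins. The third gene that rose, *Cul1*, had a log2 fold change of 0.67, which was -0.01 without scaling. All 10 proliferation markers fell, with a median of -3.94, and *Mki67* and *Top2a*, both expressed in dividing cells, fell most, to 2.89% and 3.34% of their D0 level.

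The list of cyclins and kinases that act on transcription and the list of other cyclins and kinases had medians nearer 0. Of 12 cyclins and kinases that act on transcription, 9 fell, 2 rose and 1 did not pass the threshold, with log2 fold changes between -1.01 (*Cdk19*, a kinase of the Mediator complex) and 0.19 (*Ccnt1*, a cyclin of the elongation factor P-TEFb). The median of this list was -0.29, and the rises of *Ccnt1* and *Ccnl2* became negative without scaling and with the spike-ins. Without scaling, which keeps the lower total counts at D5, all 12 were called lower. With the spike-ins the calls were 2, *Cdk8* and *Cdk19*, both lower. Of 15 other cyclins and kinases tested, 9 rose, 5 fell and 1 did not pass, where 82.9% of all genes tested passed. *Ccny*, a membrane-bound cyclin, rose 2.41-fold, to 161 ± 2.27 CPM (SD, n = 3), while *Cdk18* and *Cdk17* fell with log2 fold changes of -1.88 and -0.71. Without scaling, 4 of these 15 genes were called higher and 9 lower, and with the spike-ins 1 was called higher and 2 lower. *Ccna1*, *Ccnb3* and *Ccnjl*, also in that list, had at most 7 counts in any library and were not tested.

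**Figure D5:**
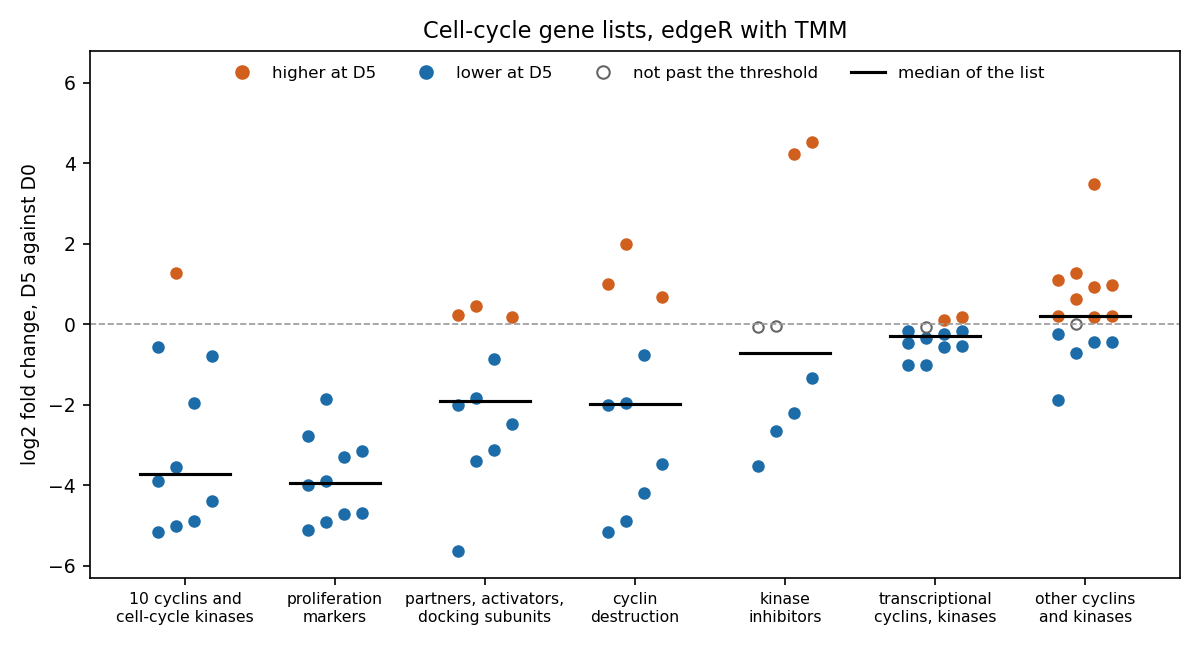
Log2 fold change, D5 against D0, from edgeR with TMM for the 10 genes and for the tested members of 6 fixed lists. Blue points are lower and orange points higher at D5 past the threshold, open points did not pass, and black bars are medians, which run from -3.94 for the proliferation markers to 0.22 for the other cyclins and kinases.

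Genes with the most similar profile over the 6 libraries were searched among 9391 other genes with a mean of at least 10 CPM, by the root mean square difference of centred log2 CPM. With only 2 groups, this mostly finds genes with the same fold change. The closest to *Cdk1* were *Prc1* (0.040), *Aspm* (0.066) and *Spdl1* (0.083), with log2 fold changes of -4.34, -4.33 and -4.46. The closest to *Ccnd3* were *Irx5* (0.025), *Grik5* (0.028) and *Hecw2* (0.030), all with a log2 fold change of 1.27.

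Some counts could be shared with other genes, since neither the strand setting nor the handling of multi-mapped reads is given in the sources used here. Of the exonic length of *Ccnd1*, 23.4% lies opposite a gene on the other strand (LTO1), and the share was 17.4% for *Ccne2* (*Ints8*), 12.5% for *Ccna2* (*Exosc9*) and at most 7.86% for the other genes. LTO1 had no gene row under that name, so its counts cannot be set beside those of *Ccnd1*. *Exosc9* had from 868 to 898 counts in the D5 libraries, where *Ccna2* had 119 to 160, and *Ints8* had from 1818 to 1924, where *Ccne2* had 78 to 100. The part of such reads in these levels was not tested. Of the 50-base stretches of *Ccnb1* transcripts, 23.4% also occur in transcripts of other loci, chiefly *Ccnb1-ps*. That locus had from 30 to 38 counts at D0 and at most 1 count at D5. *Ccnb2*, *Ccne1* and *Cdk1* shared no such stretch with any other gene.

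The ERCC spike-ins, synthetic RNAs added to each sample, took from 0.720% to 2.09% of the counts, with both extremes among the D5 libraries. Scaled to them, *Ccnd3* stood at a log2 ratio to the D0 mean of 0.54, 1.39 and -0.24 in D5 replicates 1, 2 and 3. The third myotube library thus lay below every myoblast library, since those ran from -0.15 to 0.17. *Cdk2* stood at -1.29, -0.43 and -2.07 in D5 replicates 1, 2 and 3. *Cdk1* was at -5.06, -4.22 and -6.02, and *Ccna2* was at -5.93, -4.85 and -6.85, far below every D0 library in each case. The median log2 fold change of all genes was then -0.58, and relative to it the values were 1.29 for *Ccnd3* and -0.53 for *Cdk2*. With TMM the values relative to the median were 1.26 and -0.57. Subtracting the median takes out most of the scaling, so these values do not test the result with the spike-ins.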

How the data were processed

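The 6 deposited tables hold raw read counts per gene, which the authors made with featureCounts on GRCm38 without normalization. The labels name Tophat2 2.0.0 and NGS-QC-Toolkit 2.3.3, whereas the methods name HISAT2 and FastQC. Library sizes and tests used gene rows only, without the 92 ERCC rows and the closing total row, which has no name. Genes were filtered with filterByExpr, scaled by TMM and tested for D5 against D0 with glmQLFit and glmQLFTest in edgeR 4.0.16 (R 4.3.3), with Benjamini-Hochberg adjustment over 16290 genes and a threshold of 0.05. The SE was taken as log2 fold change over the root of F. TPM used exonic lengths of GENCODE M21, in which 99.9% of gene rows were found. On data simulated with 200 genes changed 2-fold, 90.3% of the 196 tested were recovered among 15928 genes, and 4.84% of calls fell on unchanged genes. In the real data 82.9% of genes were called, a setting that the simulation did not cover. Replicates differed beyond sampling noise (chi-square per degree of freedom 2.28 to 3.71).

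The named genes are the 10 members, the members of the fixed lists (with values for those with the largest rises and falls), the closest profiles and genes that share sequence with a member. *Cdk4*, *Cdk6*, *Mnat1*, *Cul1*, *Cdkn1b* and *Cdkn2d* were given values after their values were seen. A gene that the rule would name is not reported here. The members and lists were chosen with earlier results of these data known. Alternatives were DESeq2 1.42.0, upper-quartile, total-count, no and spike-in scaling, no filter, a minimum of 10 counts per library, leaving out each library in turn and the replicate number as a block. Intervals and limits on counts cover counting error only.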

Additional observations from a re-analysis of the deposited data

How the results depend on the processing

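Over 14 alternatives for each of the 10 genes, 138 of 140 log2 fold changes kept their direction and their side of the threshold, none changed direction, and the 2 others are those of *Ccnd3* and *Cdk2* with scaling to the ERCC spike-ins. With that scaling 0 genes of the 10 were called higher in edgeR (*Ccnd3* had an adjusted p of 0.284) and 8 lower, and the median of the 10 was -4.28. *Ccnd3* then overlapped between the groups, and the other 9 genes were lower without overlap. Without scaling the median was -4.40. The median of all genes moved to -0.58 and -0.68 in these fits, and of all calls 67.4% and 76.6% were lower, against 49.2% with TMM. Genes called over the whole table numbered 5560 with the spike-ins, against 13510. The fit without scaling treats all libraries as equal in size, so the lower total counts at D5 enter its fold changes by construction. The cause of the shift with the spike-ins was not tested. With the longest transcript as length, the shares of the D-type pool at D0 and D5 were 14.2% and 6.45% for *Ccnd1*, 40.97% and 8.32% for *Ccnd2*, and 44.9% and 85.2% for *Ccnd3*, by construction of the lengths. Leaving out each library kept the median of the 10 between -3.76 and -3.63, and kept 9 lower and 1 higher. All 8 ratios kept their direction without each library. The replicate numbers shared by D0 and D5 are not stated to mark a common batch. The correlation of same-numbered deviations across genes was 0.0275, 0.104 and 0.0469 for replicates 1, 2 and 3, and each sample correlated best with its own number, a hint from the data only. With the replicate number as a block, 9 of the 10 were lower, 1 was higher and the median was -3.71, with 13558 genes called in all. Depth limits the D5 levels of those of the 10 genes with the fewest counts, down to 50 in a library.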
